A study of Mus musculus with 14 samples.

Results

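The comparison set neural precursor cells (NPCs) against the embryonic stem cells (ESCs) they were derived from, with CTCF present in both, and asked which contacts of active promoters were listed in one cell type or the other. The members were 4 of the 14 samples of the series, chosen by their labels: 2 of ESC control and 2 of NPC control. ESC control were F123 mouse embryonic stem cells at 0 h of auxin, grown with LIF and KnockOut Serum Replacement. NPC control were F123 neural precursor cells on day 4 of differentiation without auxin. Both groups carry the CTCF-AID allele, a degron fused to CTCF that removes the protein only once auxin is added. Untagged cells and the dCas9 groups did not enter the comparison. The auxin groups entered through the peak flags of their MAPS lists alone, used to tell whether a promoter bin was flagged in a cell type. The labels do not say whether the cells are 1 clone or how the neural differentiation was driven.

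The assay was PLAC-seq for H3K4me3, the trimethylated histone H3 lysine 4 found at active and poised promoters. Chromatin is ligated so that DNA ends lying near each other in the nucleus are joined, and joined fragments that carry the mark are pulled down and sequenced. Promoters contact distal enhancers and other promoters within loops that cohesin extrudes and that CTCF can halt. When ESCs turn into neural precursors, genes of the pluripotent state are shut down and neural transcription factors are switched on, and many developmental promoters already carry H3K4me3 beside the repressive Polycomb mark in ESCs.

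The loops were listed by the authors with a pair of callers, MAPS and FitHiChIP, in 1 list per group and caller. A loop is a pair of 10 kb bins, and it counted as shared when both bins were the same in both lists. The MAPS lists, used as the main ones, held 56714 loops for ESC control and 82861 for NPC control, 111028 different loops in all. Per the file headers each MAPS line carries a flag that says whether an anchor bin holds an H3K4me3 peak, and no loop lacked such a bin at both ends. A MAPS loop had at least 12 contacts, an observed to expected ratio of at least 2.00 and an FDR under 0.01, at 20 to 1000 kb. The FitHiChIP lists were built on 47519917 contacts in ESC control and 52337421 in NPC control, 1.10 times as many. With 1 list per group there is no replicate spread, so the cell types could not be tested and no p-value appears. Intervals are exact Clopper-Pearson 95% intervals, which cover counting error only. They are too narrow, since 96.6% of ESC and 96.9% of NPC loops belonged to clusters of loops in the deposited lists.

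H3K4me3 enrichment differed between the libraries. The deposited MAPS lists give short-range reads per bin, with a median of 282 at flagged and 153 at unflagged anchor bins in ESC control and of 579 and 206 in NPC control. Flagged bins therefore held 1.84 times the reads of unflagged ones in ESCs and 2.81 times in NPCs, and read coverage in the FitHiChIP lists gave 1.53 and 2.20 times. The part of this difference in the loop numbers below was not tested. The labels were checked against markers of each cell type. Of 11 placed ESC markers, 10 were flagged in ESC and 9 in NPC lists, which were all those with a known flag there. Tdgf1 and Tfcp2l1 were no longer an anchor in NPC control, so their NPC flag is not known. The promoter bins of Nanog and Pou5f1, factors that hold the pluripotent state, kept their flag in NPCs. Their short-range reads went from 563 to 421 at Nanog and from 786 to 561 at Pou5f1. Scaled to the unflagged bins, whose reads set 1, that was 0.521 and 0.497 of the ESC level. The median of promoter bins that were anchors in both MAPS control lists was 1.55. Of 12 neural precursor markers, 10 were flagged in ESC and 11 in NPC lists, again all those with a known flag. A flag is known only where the bin is an anchor of a listed loop, and each loop needs a peak bin. A promoter without the mark can thus drop out as unknown. Whether the mark at these promoters separates the cell types cannot be read from the flags. The median scaled level was 1.01 for ESC markers, 1.85 for neural precursor markers, 1.38 for trophoblast markers and 2.07 for markers of extraembryonic endoderm, so it was not highest for the neural ones. These levels cover only bins that were anchors in both MAPS control lists. Among the ESC markers that leaves out Esrrb, Tdgf1 and Tfcp2l1. Feeder fibroblast markers were flagged at 3 of 6 placed genes in each cell type. Their flag was known at 3 genes in ESCs and at 4 in NPCs. A scaled level was known at Col1a1 alone, 0.877. Trophoblast markers were flagged at 5 of 6 genes and markers of extraembryonic endoderm at 6 of 6, in both, 1 of the trophoblast genes (Krt7) through the auxin lists alone. Loops went from 33 in ESCs to 106 in NPCs at the ESC markers (more at 6 genes, fewer at 4). At the neural precursor markers they went from 102 to 245 (more at 8, fewer at 3). Trophoblast markers went from 64 to 102 and feeder markers from 9 to 17. The endoderm markers had 37 loops in ESCs and 87 in NPCs, more in NPCs at 6 of 6. Loop numbers thus rose in every marker set, that of ESCs included. Gata6, an endoderm factor, had 4 loops in ESCs and 23 in NPCs. H3K4me3 at these bins does not show that the gene was transcribed, and the part of other cell types was not tested.

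The promoters that carry the main contrasts are shown first, from 250 bases before to 50 after the RefSeq start (build GRCm38.p6), 5′ to 3′ on the strand of the gene, with CG dinucleotides in capitals. Sox11, Ptch1 and Nr2f2 gained many loops in NPCs, and Rfx4 had most of its loops in ESCs. Nkx2-1 and Pax9 formed the strongest promoter pair in the ESC MAPS list alone. The pair of Foxc1 with Foxf2 was not in the NPC MAPS list, while other Foxc1 loops became more numerous. These promoters are printed below. They lie at chr12:27342669-27342968 (Sox11, minus strand), chr13:63565686-63565985 (Ptch1, minus), chr7:70366697-70366996 (Nr2f2, minus), chr10:84755798-84756097 (Rfx4, plus), chr12:56536859-56537158 (Nkx2-1, minus), chr12:56695221-56695520 (Pax9, plus) and chr13:31806396-31806695 (Foxc1, plus).
Sox11: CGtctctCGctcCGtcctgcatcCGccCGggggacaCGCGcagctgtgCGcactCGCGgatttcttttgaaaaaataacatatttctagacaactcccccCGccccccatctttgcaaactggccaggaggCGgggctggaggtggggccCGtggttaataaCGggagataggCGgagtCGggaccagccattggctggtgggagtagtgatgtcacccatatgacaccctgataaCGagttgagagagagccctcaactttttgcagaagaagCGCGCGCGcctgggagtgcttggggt
Ptch1: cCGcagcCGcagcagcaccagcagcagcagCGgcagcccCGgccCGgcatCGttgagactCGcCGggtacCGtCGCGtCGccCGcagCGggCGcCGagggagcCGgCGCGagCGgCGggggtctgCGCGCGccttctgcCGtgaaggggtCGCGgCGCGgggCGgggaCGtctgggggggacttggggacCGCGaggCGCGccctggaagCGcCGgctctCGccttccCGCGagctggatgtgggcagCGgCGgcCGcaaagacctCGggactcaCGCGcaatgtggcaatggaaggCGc
Nr2f2: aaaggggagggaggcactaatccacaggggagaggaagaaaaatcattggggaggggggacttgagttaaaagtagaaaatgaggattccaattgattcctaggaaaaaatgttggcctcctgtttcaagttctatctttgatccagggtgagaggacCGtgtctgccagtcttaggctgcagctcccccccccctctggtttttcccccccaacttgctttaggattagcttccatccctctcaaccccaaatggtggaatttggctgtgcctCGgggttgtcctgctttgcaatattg
Rfx4: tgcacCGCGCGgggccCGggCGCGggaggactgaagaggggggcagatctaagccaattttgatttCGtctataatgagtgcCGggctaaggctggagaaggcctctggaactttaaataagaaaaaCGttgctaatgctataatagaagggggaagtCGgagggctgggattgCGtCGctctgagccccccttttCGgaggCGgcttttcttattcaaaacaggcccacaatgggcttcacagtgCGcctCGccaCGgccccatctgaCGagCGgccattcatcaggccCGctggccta
Nkx2-1: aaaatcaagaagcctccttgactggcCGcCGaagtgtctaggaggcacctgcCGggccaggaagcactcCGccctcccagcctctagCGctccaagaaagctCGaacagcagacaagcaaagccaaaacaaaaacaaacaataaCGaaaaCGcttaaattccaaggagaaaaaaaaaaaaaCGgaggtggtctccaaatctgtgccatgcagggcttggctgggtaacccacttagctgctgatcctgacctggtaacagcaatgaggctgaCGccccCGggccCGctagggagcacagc
Pax9: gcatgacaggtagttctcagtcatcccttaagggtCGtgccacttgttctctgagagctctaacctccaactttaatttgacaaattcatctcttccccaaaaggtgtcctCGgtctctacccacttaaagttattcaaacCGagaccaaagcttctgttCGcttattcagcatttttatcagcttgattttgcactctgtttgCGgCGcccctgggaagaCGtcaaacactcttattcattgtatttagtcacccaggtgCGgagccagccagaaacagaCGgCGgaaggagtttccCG
Foxc1: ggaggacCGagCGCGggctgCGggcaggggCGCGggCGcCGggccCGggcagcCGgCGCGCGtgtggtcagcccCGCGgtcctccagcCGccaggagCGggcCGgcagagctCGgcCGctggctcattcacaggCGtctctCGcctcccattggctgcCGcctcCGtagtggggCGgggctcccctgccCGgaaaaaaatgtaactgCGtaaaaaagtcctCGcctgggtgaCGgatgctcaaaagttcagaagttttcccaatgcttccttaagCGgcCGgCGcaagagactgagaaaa
The CG count was 21 at Sox11, 47 at Ptch1, 2 at Nr2f2, 20 at Rfx4, 12 at Nkx2-1, 11 at Pax9 and 32 at Foxc1. Promoters with more loops in NPCs were thus both rich and poor in CG. The core of the CTCF motif was searched on both strands of the same windows, as the letters CCA, AG and GGC in that order with 2 bases of any kind in each gap. It occurred in 775 of 31365 RefSeq promoters (2.47%). Of the 7 promoters shown, the Foxc1 promoter held a match, beginning at position -160 from the start.

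NPCs had more listed loops than ESCs, and most of the surplus lay in loops with H3K4me3 at 1 anchor, more so with MAPS than with FitHiChIP. The MAPS lists differed 1.46-fold, with more NPC loops on 19 of 19 autosomes (1.19 to 1.91 times, SD over chromosomes 0.224). FitHiChIP listed 33475 loops in ESC and 44892 in NPC control, 1.34 times as many. In the MAPS lists, loops with H3K4me3 at both anchors numbered 14958 and 15856 (1.06 times). Those with a peak bin at 1 anchor went from 41756 to 67005, or 1.605-fold. The share of loops that joined 2 peak bins thus went from 26.4% to 19.1%, and it was lower in NPCs on 19 of 19 chromosomes. With FitHiChIP, loops between 2 peak bins went from 17247 to 21212 (1.23 times) and those with 1 from 16228 to 23680 (1.46 times), and the share from 51.5% to 47.3%. The number of flagged anchor bins hardly moved, from 15838 to 16056, while unflagged partner bins went from 24862 to 41464 (1.67 times). A flagged bin had on average 4.53 loops in ESCs and 6.15 in NPCs.

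The surplus grew with distance. At 20 to 90 kb the lists held 5165 and 6384 loops, and at 100 to 190 kb 17867 and 21407, which is 1.24 and 1.20 times as many in NPCs. Loops of 200 to 490 kb numbered 28727 and 41610 (1.45 times), and those of 500 to 1000 kb 4955 and 13460 (2.72 times). The ratio of the long class exceeded that of loops under 200 kb on 19 of 19 chromosomes. In the long class, loops with 1 peak bin went from 3448 to 10694, 3.10-fold, against 1.84-fold for those with 2. Between 2 peak bins the MAPS lists had fewer loops in NPCs at 100 to 190 kb, 4135 against 4682, and at 20 to 90 kb, 1285 against 1311. FitHiChIP had more in NPCs in both classes, 4437 against 3950 and 4403 against 4204. FitHiChIP gave a flatter course, 1.06, 1.24, 1.49 and 1.52 times over the same classes and 1.19 beyond 1000 kb. The median distance was 230 kb in ESCs and 260 kb in NPCs, and 370 and 390 kb with FitHiChIP. It was longer in NPCs on every autosome, by 10 to 60 kb (SD 14.1).

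**Figure D1:**
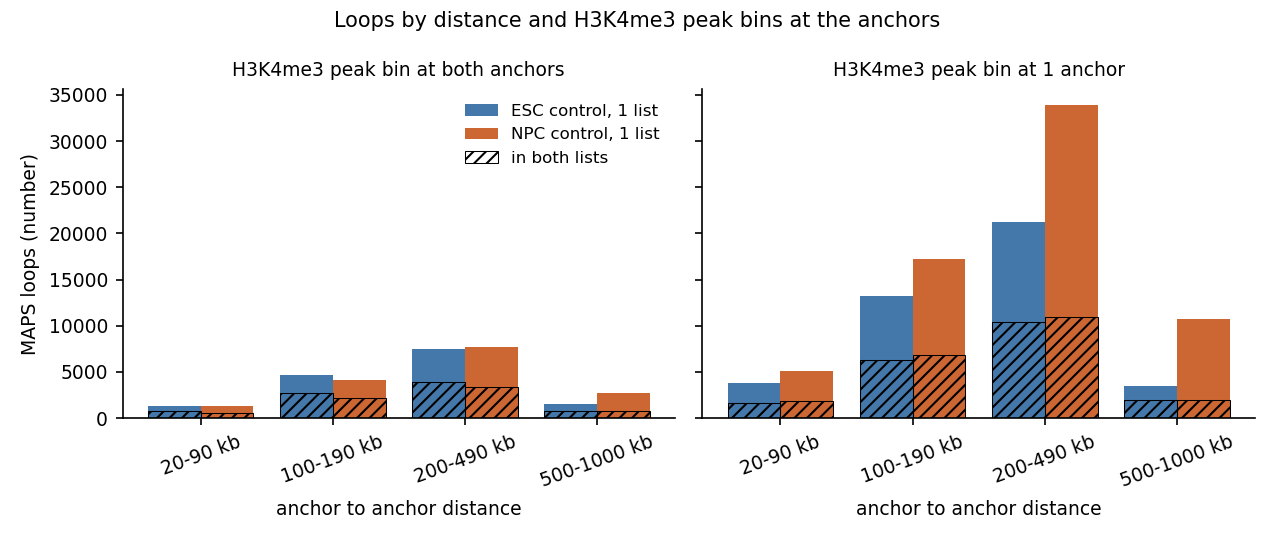
Number of MAPS loops (vertical axis) by anchor to anchor distance, split into loops joining 2 H3K4me3 peak bins (left) and loops with 1 (right), in ESC control (blue) and NPC control (orange), 1 list each; hatching marks loops in both lists, classed by each list's own flags. Up to 490 kb the bars on the left are close, and on the right the NPC bar is taller in every class, 10694 against 3448 at 500 to 1000 kb.

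Of the ESC loops, 1 in 2 was also listed in NPCs, and of the NPC loops 1 in 3 in ESCs. In all, 28547 loops were shared, 50.3% (49.9 to 50.7) of the ESC list and 34.5% (34.1 to 34.8) of the NPC list. FitHiChIP gave 53.5% and 39.9%. Strong loops were shared more often: of the fifth of ESC loops with the lowest FDR 76.6% were also in the NPC list, against 33.5% of the fifth with the highest. The corresponding NPC shares were 66.6% and 17.5%. Among the long NPC loops of 500 to 1000 kb, 20.4% were in the ESC list. Many loops in 1 list lay beside a loop of the other. Of the 28167 loops listed only in ESCs, 48.3% had an NPC loop within 1 bin at both anchors, and so did 39.3% of the 54314 listed only in NPCs for ESC loops. A loop absent from a list may also have fallen just short of its thresholds.

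At bins that were anchors in both lists, the H3K4me3 flag was mostly the same in both cell types. Of 31070 bins that were anchors in both MAPS lists, 93.0% (92.8 to 93.3) had the same flag: 11563 were flagged in both and 17345 in neither. The mark was flagged only in ESCs at 1708 bins and only in NPCs at 454. A further 2567 flagged bins were anchors in the ESC list alone and 4039 in the NPC list alone. The other MAPS control list gives no flag for them. Since a pair without a peak bin cannot be listed, a bin without the flag can be listed only with flagged partners, and lower loop numbers there follow in part from how the lists are built. Bins flagged only in ESCs had 8170 loops in ESC and 3798 in NPC control (0.465 times), with fewer in NPCs at 1148 bins and more at 177. Bins flagged only in NPCs went from 1005 to 2629 loops (2.62 times), with more at 362 and fewer at 24. Where the flag was present in both, loops went from 58422 to 84637 (1.45 times), close to the ratio of the list totals. Short-range reads, scaled to bins flagged in neither, were 0.868 of the ESC level at bins flagged only in ESCs and 1.01 at those flagged only in NPCs. At bins flagged in both they were 1.37 times the ESC level.

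Loops with the same flags at both anchors made up most of both lists among loops whose anchors appear in both. They numbered 36997 in ESC and 43577 in NPC control, 1.18 times as many, and 70.0% of the ESC and 59.4% of the NPC ones were shared. Outside this split were loops with an anchor in 1 list only, 12563 of ESC (22.2%) and 33840 of NPC control (40.8%). None of those could be shared, so the shares within the split are higher than those of the whole lists. Where at least 1 flag differed, 37.2% of 7154 ESC loops and 48.8% of 5444 NPC loops were shared, gaps of 32.8 and 10.6 percentage points. A large part of these gaps follows from how the lists are built, since a pair without any peak bin cannot be listed. Of the ESC loops with a changed flag, 3111 had no flagged anchor in NPCs, and so 0 could be shared. Leaving such pairs out, 65.8% of 4043 ESC loops (64.3 to 67.2) and 58.1% of 4578 NPC loops (56.6 to 59.5) with a changed flag were shared. The gaps to loops with unchanged flags were then 4.21 and 1.33 points. Among loops between 2 ESC peak bins, 59.8% of the 3286 that lost a flag were shared and 65.9% of the 9584 that kept both. Among loops between 2 NPC peak bins the order was the other way, 57.4% of the 1046 that gained a flag and 55.0% of the 11481 that did not. The 3286 and the 1046 still include pairs without any flagged anchor in the other cell type. Such pairs could not be shared, so the shares of 59.8% and 57.4% are lowered by how the lists are built. With flags known only at bins of the FitHiChIP lists, the gap was 14.0 points for ESC loops and turned to -0.307 for NPC loops. Pairs without a peak bin were included. The flags themselves were equal at all 17522 ESC and 25712 NPC bins found with both callers. What differed was thus the set of loops whose flags were known.

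Promoters were then taken 1 by 1. A promoter bin is the 10 kb bin that holds a RefSeq start of a protein-coding gene or, without one, the flagged bin of a gene end. The change at a bin is log2 of NPC loops plus 1 over ESC loops plus 1, less 0.55, which is log2 of the ratio of list totals. A bin with many loops that changed as the lists did is near 0. At few loops such a bin falls below 0, because of the 1 added to both numbers. Among 3582 promoter bins with at least 10 loops over both lists, 670 (18.7%) were at least 2-fold higher in NPCs by this measure and 385 (10.7%) at least 2-fold lower. Without reference to the list totals, 2643 bins had more loops in NPCs, 711 fewer and 228 as many. Of the bins past the fold in either direction, 956 moved the same way with FitHiChIP. A changed flag accounted for few of them by number: 3404 bins had the same flag, with 555 higher and 335 lower. Of 55 bins flagged only in ESCs, 48 were lower, and of 9 flagged only in NPCs, 3 were higher. A further 112 bins had no ESC loop, and 2 had no NPC loop. Reads moved with loops: among bins with the same flag, the median scaled short-range reads were 2.12 times the ESC level at the higher bins, 1.33 at the lower bins and 1.64 at the rest. The part of the reads in the loop numbers was not tested.

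**Figure D2:**
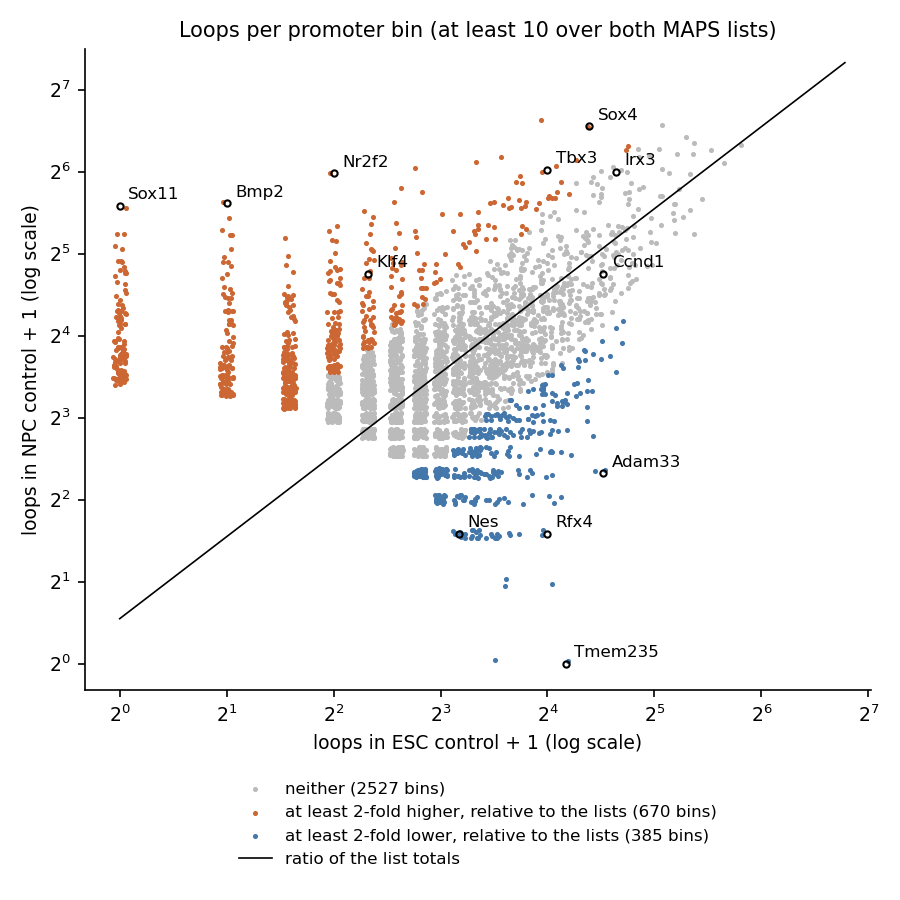
Loops plus 1 in NPC control (vertical) against loops plus 1 in ESC control (horizontal), both log scales, for the 3582 promoter bins with at least 10 loops; points are jittered slightly, named genes are circled, and the line is the ratio of the list totals. The 670 orange bins lie at least 2-fold above the line and the 385 blue bins at least 2-fold below it, with Sox11 at 0 ESC loops on the left edge.

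The promoters with the largest relative gain at an unchanged flag were the following. Bmp2, a ligand of the BMP pathway, had 1 loop in ESCs and 48 in NPCs (0 and 22 with FitHiChIP), and Pdgfc, a platelet-derived growth factor, had 1 and 44 (3 and 19). Ptch1, the Hedgehog receptor, had 1 and 36 (1 and 12). Osr1, a zinc finger factor, had 1 and 37 (4 and 22). Nr2f2, a nuclear receptor also called COUP-TFII, had 3 and 62 (6 and 39). All of these bins were flagged in both cell types, so a promoter already marked in ESCs had few loops there. The others were Mysm1 (1 and 32), a histone H2A deubiquitinase, Kcnma1 (1 and 31), a potassium channel, Sema5a (1 and 30), an axon guidance protein, and St3gal1 (1 and 30), a sialyltransferase. Short-range reads went from 478 to 2045 at Ptch1 and from 268 to 687 at Sema5a, and on the scale of unflagged bins the bins named here had 1.57 (St3gal1) to 3.25 (Kcnma1) times the ESC level. Bmp2, Osr1 and St3gal1 were placed at a flagged gene end, so the flagged bin may belong to a neighbouring or antisense gene.

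Some promoters had loops in NPCs alone, a set named after its values were seen. Sox11, a factor of neural progenitors and early neurons, had 47 NPC loops and 22 with FitHiChIP, and no ESC loop with either caller. Erbb4, a receptor tyrosine kinase, had 37 (31 with FitHiChIP, against 2 in ESCs), and Irs2, an insulin receptor adaptor, had 36 (18 against 0). Dach1 had 32, Camk2d 31, Gli3 30, Erlin2 29, Phip 28, Twist1 27 and Satb1 27. Gli3 is a transcription factor of the Hedgehog pathway, as Ptch1 is its receptor, and Twist1 is a factor of mesenchyme and neural crest. Sox11, Irs2, Dach1 and Phip were no anchor in any deposited ESC list, so their ESC flag is not known, while Erbb4, Camk2d, Gli3, Erlin2, Twist1 and Satb1 were flagged there, Erlin2 in the auxin list alone. In the other direction, Tmem235 had 17 ESC loops and Dab2ip 10, both with none in NPCs.

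Of the promoters with the largest relative loss at an unchanged flag, Rfx4, a transcription factor of the developing brain, had 15 loops in ESCs and 2 in NPCs (5 and 0 with FitHiChIP), although its short-range reads went from 747 to 1239. Adam33, a membrane metalloprotease, had 22 and 4 (13 and 0), and Npas4, an activity-dependent factor of neurons, had 15 and 3 (11 and 2). Adamtsl3 had 14 and 2, Bicra, a chromatin remodelling subunit, 11 and 2, and Tmem178 13 and 3. Dvl1, a mediator of Wnt signals, had 10 and 2, as did the bin of Antkmt, and Itga2b, an integrin of platelets, had 9 and 2. These bins were all flagged in both cell types. Their scaled short-range reads ran from 0.837 (Npas4) to 1.96 (Tmem178) times the ESC level.

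Bins whose flag differed are given as values, since the flag itself limits which of their pairs can be listed. Of the bins flagged only in ESCs, Thrsp had 15 loops in ESCs and 1 in NPCs, Perm1 11 and 1, Pou2f2, an Oct factor of B cells, 17 and 3, Utp11 21 and 4, and Siglec1 12 and 2. FitHiChIP gave the same sign, 6 and 1 at Pou2f2 and 5 and 2 at Utp11. Of the bins flagged only in NPCs, Irgm1 had 3 and 16, Cyp26b1, an enzyme that degrades retinoic acid, 2 and 11, and Ttc30a2 1 and 9. Dscaml1 (4 and 9) and Golt1a (6 and 10) were next and stayed under the 2-fold threshold, at 0.45 and 0.11 on the log2 scale.

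At some of these genes the NPC loops lay on one side of the promoter. At Erbb4 37 of 37 NPC partners lay on the side of lower coordinates, and at Pdgfc 43 of 44 and at Ptch1 36 of 36 on the side of higher coordinates. The strongest NPC loop of Ptch1 (bin at chr13:63560001-63570000) had 100 contacts and reached 250 kb to a bin within Ercc6l2. Its only ESC loop, at 470 kb, had 21 contacts in ESCs and 65 in NPCs. Bmp2 (chr2:133550001-133560000) had its strongest NPC loop at 170 kb with 98 contacts, and its only ESC loop, at 550 kb, went from 17 to 35. Pdgfc kept its single ESC partner at 750 kb, with 13 contacts in ESCs and 37 in NPCs. Nr2f2 (chr7:70360001-70370000) had 2 of its 3 ESC partners in NPCs as well. The strongest ESC loop, 80 kb away with 113 contacts, was not in the NPC list, and of the 62 NPC loops 50 lay on the other side, the strongest at 260 kb with 73 contacts. With FitHiChIP these strongest loops had 96 and 67 contacts in their own cell type alone. Sox11 reached 150 kb with 78 contacts, and Gli3 80 kb within its own gene with 106.

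Rfx4 (chr10:84750001-84760000) showed the opposite course. All 15 ESC partners lay on the side of higher coordinates, the strongest 160 kb away in Ric8b with 79 contacts, and it was not in the NPC list. The strongest of the 2 NPC loops, at 270 kb, had 29 contacts in both lists. Tbx3, a factor of both pluripotency and development, kept its ESC partners and added others: its 15 ESC loops were all among its 64 NPC loops, all on the side of lower coordinates. The strongest, 90 kb away, went from 195 to 249 contacts.

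**Figure D3:**
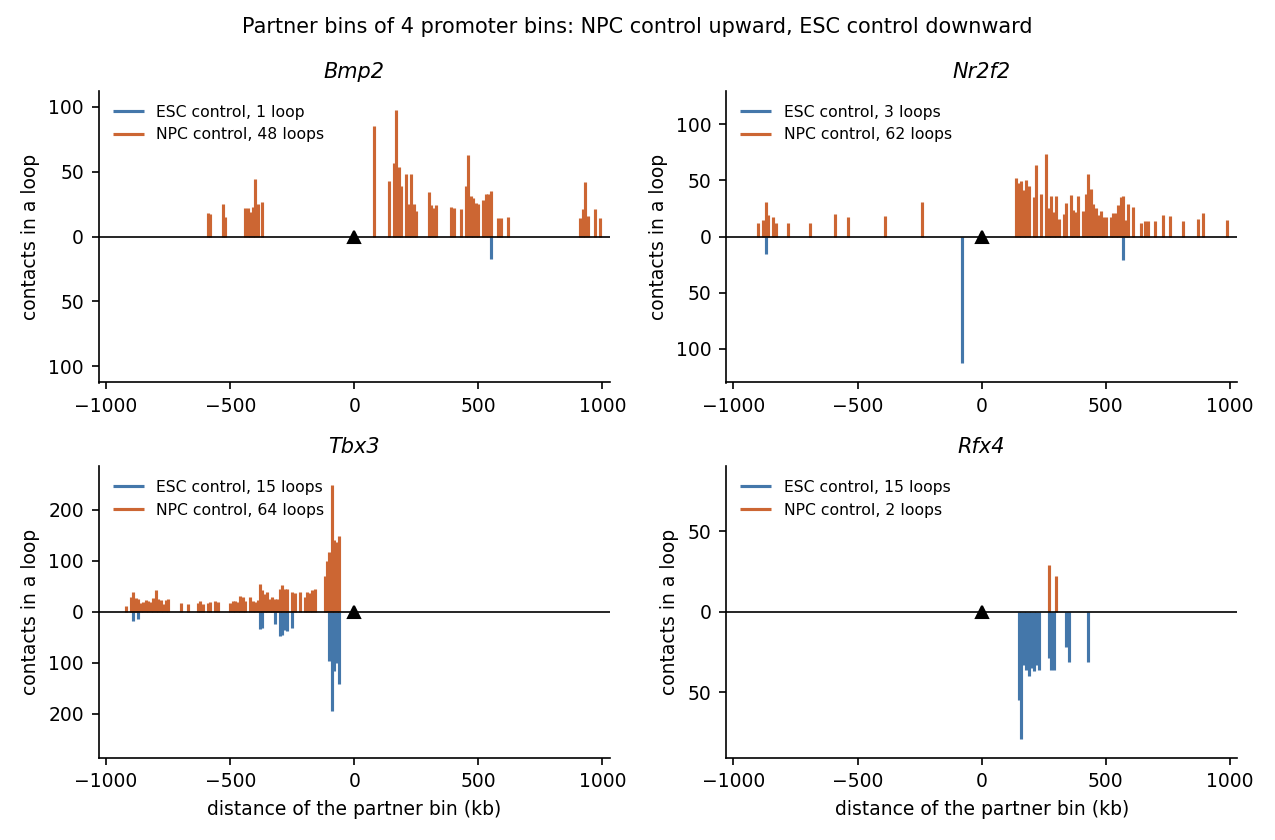
Partner bins of the Bmp2, Nr2f2, Tbx3 and Rfx4 promoter bins: contacts in each MAPS loop (vertical axis, NPC control upward in orange, ESC control downward in blue) by distance of the partner from the promoter (horizontal axis, kb; negative is towards lower coordinates; the triangle is the promoter). Bmp2 and Nr2f2 have 48 and 62 NPC loops against 1 and 3 in ESCs, Tbx3 extends its ESC pattern, and Rfx4 has 15 loops in ESCs and 2 in NPCs.

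The share of partners kept between the cell types varied widely between promoters. At 790 bins with at least 10 loops in each list, the median share of partners found in both was 45% (quartiles 35 and 55.6%) of those found in either. It was 50% at the 507 bins whose loop numbers lay within 1.5 times. With a tolerance of 1 bin at promoter and partner, another measure was used: the share of all partners of both lists that had a match. Its median was 86.0%. That measure counts a shared partner once per list and is higher at the same overlap, so it cannot be set against the exact share. Nek8, a kinase of the cilium, kept 93.8% of its partners, Rbx1, a ubiquitin ligase subunit, Snai1, a factor of the epithelial to mesenchymal transition, and Anapc13 each kept 85.7%, and Ccnd1, the gene of cyclin D1, kept 84.6%. Ccnd1 had 22 and 26 loops, and its strongest, 310 kb away in Tpcn2, had 114 and 131 contacts. At the other end Grik3, a glutamate receptor subunit, with 11 loops in ESCs and 14 in NPCs kept 8.70%, Tmem159 9.52%, Mecr 12%, Krt10 12.5% and Paxbp1 14.3%. By the other measure, with a tolerance of 1 bin, Grik3 had 76% and Mecr 89.3%, while Paxbp1 had 34.4% and Tmem159 39.1%. With FitHiChIP, Snai1 kept 38.5% and Anapc13 46.2%.

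Gene groups were described by counts, since no test of a list was made. Of 12864 genes with a loop, 62.6% had more loops in NPCs and 26.5% fewer, with a median change of 0.04 on the log2 scale. Neural progenitor genes had more loops at 35 of 44 members and fewer at 6, with a median of 0.45, and 404 loops in ESCs against 1002 in NPCs. Besides Sox11 and Nr2f2, Pou3f3, a POU factor of neural progenitors, had 2 and 29, Irx3 24 and 63 and Meis2 27 and 54. The neural stem cell filament gene Nes went against its group, with 8 loops in ESCs and 2 in NPCs, the strongest of which went from 101 to 92 contacts. Neural crest genes had more loops at 9 of 10 members, with a median of 1.02. Foxd3 had 1 and 16 with MAPS but 2 and 3 with FitHiChIP, a relative change of -0.0083, and Twist1 had 0 and 27 with MAPS and 2 and 13 with FitHiChIP. FitHiChIP put the list's median at 0.23. Axon guidance genes had more at 18 of 25 and fewer at 5, with a median of 0.77, led by Sema5a and by Efnb2, an ephrin with 5 and 54 loops. Neuron genes had more at 8 of 14 and fewer at 5, with a median of -0.16. Mapt, the gene of tau, had 6 and 4 and lost its flag, and Elavl3 had 4 and 1.

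Hox genes had more loops at 34 of 39 members, 447 in all in ESCs and 835 in NPCs, with a median of 0.19. Hoxa2 had 1 and 12, while Hoxc4 had 8 and 6. These genes share bins, so the 39 genes stand for 31 bins. Retinoic acid genes had more at 10 of 14 with a median of 0.07. Rarb, a retinoic acid receptor, had 0 and 26, and Rdh10, an enzyme of retinoic acid synthesis, 5 and 37. Epithelial and cadherin genes had more at 11 of 16 with a median of 0.32. Only 3 members of that list had fewer loops, among them Cdh3 (11 and 8) and Crb3 (9 and 6), of epithelia. Zeb1 (0 and 21), a repressor of the epithelial state, had more, and so had other genes of epithelia in the list.

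Pluripotency genes stood lower than the whole set with MAPS, with more loops at 15 of 30 and fewer at 11, and a median of -0.25. FitHiChIP gave -0.42, the value of any gene with as many FitHiChIP loops in both lists, such as Dppa5a (2 and 2). That median thus stands for an unchanged loop number, not for a loss. The whole set was not set beside it with FitHiChIP. Tet2, a DNA demethylation enzyme, had 6 and 3 and Fbxo15 5 and 3. The list's sum went up all the same, from 87 to 214, through Tbx3, Klf4 (4 and 26) and Sox2 (12 and 35), factors with roles outside pluripotency too. Of the 26 NPC loops of Klf4, 25 lay on one side, the strongest 60 kb away with 90 contacts. The strongest loop of Sox2, 110 kb away, had 59 contacts in ESCs and 57 in NPCs. Formative and primed epiblast genes had a median of 0.09 (-0.27 over loops under 200 kb), and mesoderm and endoderm genes of -0.13, with Tal1, a blood factor, at 9 and 2. The genes of CTCF and cohesin had a median of -0.28 with MAPS and of 0.21 with FitHiChIP. Housekeeping genes were few, with 14 and 39 loops at 11 genes, and their median was 0.77 with MAPS and -0.84 with FitHiChIP. These medians are relative to the lists, and without that centring the pluripotency median was 0.29, the neuron median 0.39 and the mesoderm and endoderm median 0.42. Loops of 200 kb and more alone gave 0.58 for pluripotency genes with centring, so the sign of that list was not fixed. The whole set was not set beside it at that distance. The medians of the neural progenitor, neural crest, axon guidance, Hox, retinoic acid and epithelial lists were above 0 under every alternative run.

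**Figure D4:**
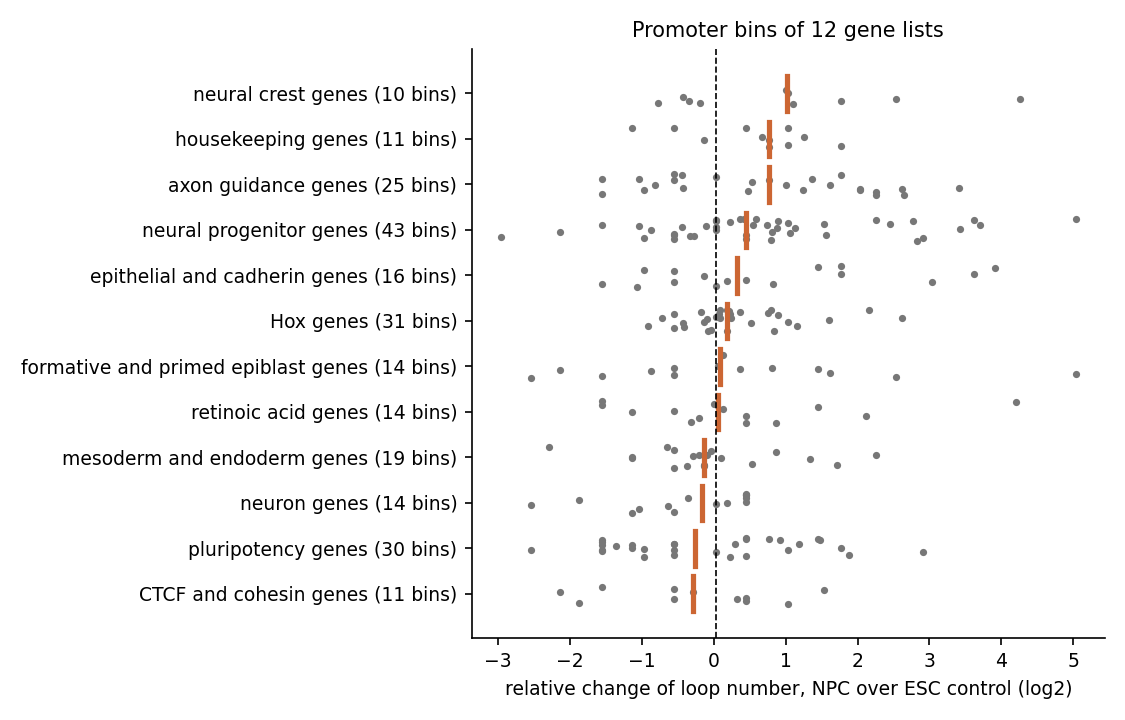
Relative change of loop number (horizontal axis, log2, NPC over ESC control, less the ratio of the list totals) at the promoter bins of 12 gene lists; each point is a bin, the orange bar the list's median and the dashed line the median of all promoter bins with a loop. Medians run from -0.28 for CTCF and cohesin genes (0.21 with FitHiChIP) to 1.02 for neural crest genes, and single bins spread widely in every list.

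Loops between promoters were more numerous in NPCs, and pairs of homeobox genes went the other way. Promoter pairs numbered 5077 in ESCs and 6779 in NPCs (1.34 times), of which 2826 were shared, and FitHiChIP had 5991 and 8889 (1.48 times). The choice of homeobox genes, which encode DNA-binding factors of body patterning, and the ranking of pairs were made after values were seen. Pairs with a homeobox gene at both anchors numbered 16 in ESCs and 6 in NPCs, and all 6 were among the 16. FitHiChIP had 27 and 16 such pairs, with 9 shared. The 16 pairs lie within few gene clusters, so they are not independent. Every one of these anchors carried the H3K4me3 flag in both cell types. Over all 177 homeobox bins, partner bins without a peak numbered 1024 in ESCs and 2088 in NPCs. Among the anchors of the 16 pairs loop numbers went both ways, from 24 to 63 at Irx3, from 17 to 8 at Tlx1 and from 14 to 14 at Pdx1.

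The pairs that were kept belonged to the Irx clusters and to Nkx2-4 with Nkx2-2. Irx3 and Irx5, 550 kb apart, went from 84 to 101 contacts and Irx5 with Irx6 from 41 to 43, while Irx1 with Irx2 went from 104 to 68, Irx2 with Irx4 from 60 to 41 and Irx3 with Irx6 from 33 to 23. Nkx2-4 with Nkx2-2 went from 60 to 92. Among the pairs listed in ESCs alone, Tlx1 with Lbx1 had 192 contacts over 80 kb, Pax2 with Tlx1 101 over 400 kb and Pax2 with Lbx1 45. The Nkx2-1 with Nkx2-9 pair had 108, Gsx1 with Cdx2 116 and Gsx1 with Pdx1 81. Of these, FitHiChIP listed the Gsx1 and Cdx2 pair in NPCs too, with 108 contacts in ESCs and 79 in NPCs. Pax2 had fewer loops of any kind in NPCs (20 and 6), whereas Nkx2-1 had more (14 and 27).

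Promoter pairs in the MAPS list of 1 cell type alone were ranked by FDR. The strongest in ESCs joined Nkx2-1 and Pax9, 160 kb apart, with 209 contacts. Nkx2-2 and Pax1 followed with 131 over 180 kb, then Pax2 and Tlx1, Foxf2 and Foxc1 (96 over 180 kb), and Gsx2 with Pdgfra (184 over 80 kb). The promoters of Nkx2-1, Pax9 and Foxc1 are printed above. Foxc1 went from 18 to 69 loops as its pair with Foxf2 left the list, and Pax9 from 26 to 43. In NPCs the strongest pairs joined Actr3 with Slc35f5 (220 contacts over 130 kb), Bloc1s3 with Gemin7 (262 over 70 kb) and AI413582 with Nudt3 (218 over 60 kb). They were followed by Aco1 with Topors (158) and by Ptch1 with Ercc6l2. Actr3, for one, encodes an actin-nucleating subunit. Each of these pairs was also listed in its own cell type by FitHiChIP. Apart from Pax2 with Tlx1, whether FitHiChIP listed them in the other cell type too is not given here.

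The difference in contacts at shared loops depended on the scale. The median log2 ratio of NPC to ESC contacts at the 28547 shared MAPS loops was 0.19 (quartiles -0.15 and 0.57). Scaled by the total contacts of the FitHiChIP lists it was 0.05, as the log2 ratio of those totals was 0.14. The ratio went up with distance in the MAPS lists, from 0.09 at 20 to 90 kb to 0.37 at 500 to 1000 kb. FitHiChIP gave 0.30 in all and no such course, with 0.31 and 0.32 in the same classes. As the ratio of observed to expected contacts the median was 0.11 with MAPS and -0.02 with FitHiChIP, and with FitHiChIP -0.11 at 500 to 1000 kb and -0.22 beyond. Loops were then centred on the median. By that measure 1383 shared loops (4.84%) were at least 2-fold higher in NPCs and 615 (2.15%) at least 2-fold lower.

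**Figure D5:**
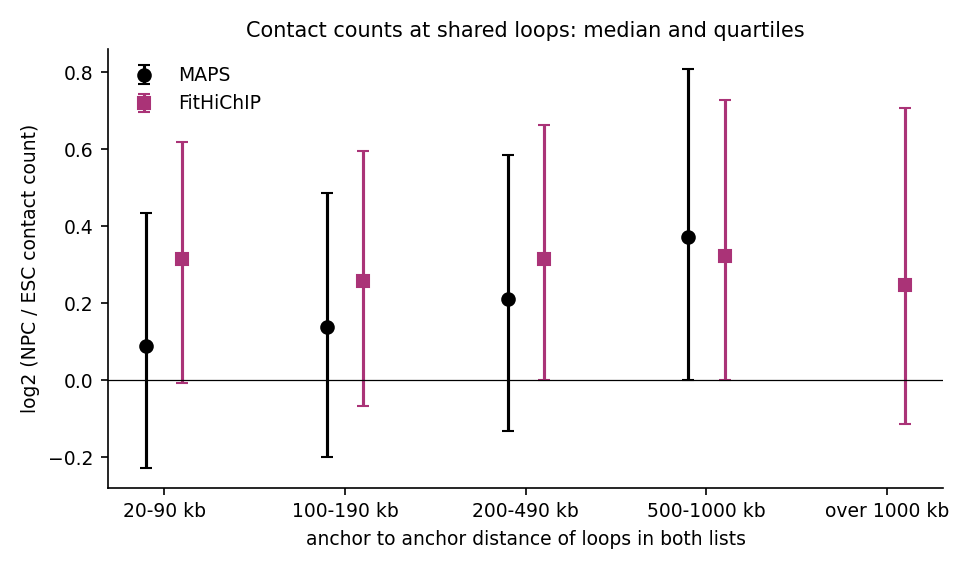
Log2 ratio of NPC to ESC contact counts at loops in both lists (vertical axis; points are medians, bars run between the quartiles) by anchor to anchor distance (horizontal axis), for MAPS (black) and FitHiChIP (purple). The MAPS medians go from 0.09 to 0.37 with distance, and the FitHiChIP medians stay between 0.25 and 0.32.

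The named loops lie at the ends of this range. Sox4, a factor related to Sox11, had a loop over 880 kb that went from 17 to 92 contacts (16 to 81 with FitHiChIP), and it had 93 loops in NPCs against 20 in ESCs. Bcl6 with Lpp went from 28 to 136, Arl4a over 520 kb from 18 to 87, and a loop of Cep76 from 26 to 140. In the other direction Pax1 with Foxa2, factors of the sclerotome and the endoderm, went from 66 to 26 contacts over 680 kb. Cdkn1c, a growth inhibitor, had a loop that went from 99 to 40, Irx4 from 76 to 32, Ndufa6 from 42 to 15 and Odf3 with Rnh1 from 60 to 24. All of these have the same direction with FitHiChIP because only such loops were eligible to be named.

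Promoter sequences were set beside the loop changes. Among the 2805 bins placed by a start, 100 (3.57%, 2.91 to 4.32) held the motif. It was in 14 of 506 higher bins (2.77%, 1.52 to 4.60), in 10 of 289 lower bins (3.46%, 1.67 to 6.27) and in 76 of 2010 others (3.78%, 2.99 to 4.71), so the intervals overlap. The median CG count in the window was 24.75 at the higher bins, 18 at the lower bins, 21 at the others and 7 over all RefSeq promoters. These are descriptions of the letters in the window, and they do not show where CTCF was bound.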

How the data were processed

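H3K4me3 PLAC-seq lists of ESC control and NPC control (2 samples per group) were compared. BWA, Picard and build mm10 are named in the submitters' processing notes, without versions. The sources used here do not say whether a group's samples were combined before the loops were called. Per the file headers, the deposited MAPS lists give for each pair of 10 kb bins a contact count, an expected value, the ratio of both, an FDR (a q-value), and short-range read coverage and a peak flag per anchor. The authors' FitHiChIP lists hold the count of contacts, the coverage of each anchor, a q-value and the fraction of all contacts expected by the caller's model. From that fraction and the expected contacts the total contacts of each list were computed.

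Gene starts, gene positions and promoter sequences came from RefSeq tables of GRCm38.p6, the assembly of mm10. Of 20661 autosomal protein-coding genes, 16456 were placed by a start and 2543 by a flagged gene end, in 17117 bins, of which 11282 had a loop. Loops per promoter bin were compared with a pseudocount of 1 and at least 10 loops over both lists. The named genes were the 10 highest and 10 lowest bins with the same flag and the same sign in FitHiChIP, the 5 highest and 5 lowest with a differing flag, 2 highest and 2 lowest members of each gene list with at least 5 loops, 5 shared loops at each end of the count ratio, and the 5 promoter bins with the lowest and 5 with the highest share of partners kept. The named shared loops were also limited to those with a promoter bin at an anchor and the same sign in FitHiChIP. The members and lists were chosen with earlier results of these data known. Genes with loops in 1 list only, the homeobox genes and the ranked promoter pairs were chosen after the values were seen. Where a bin was no anchor in a control list, its flag was read from the FitHiChIP list or else from the MAPS list of the auxin group. Scripts were tested on simulated data. Python 3.11, pandas 2.3.3, NumPy 2.4.6, SciPy 1.17.1 and matplotlib 3.10.9 were used. Alternatives are given in the closing section. Values of some genes that met the naming rule are not reported here. Chromosomes X and Y, present in the FitHiChIP lists, were not used for promoter bins.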

Additional observations from a re-analysis of the deposited data

How the results depend on the processing

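No paired analysis was possible because each group has 1 list per caller, and no replicate could be left out for the same reason. FitHiChIP observed to expected turned the shared-loop median to -0.0207, and FitHiChIP turned the ratio of loops between 2 peak bins from 0.883 to 1.12 at 100 to 190 kb and from 0.980 to 1.05 at 20 to 90 kb. The gene list medians that changed sign stand beside those lists. FitHiChIP gave a loop ratio of 1.34, shared shares of 53.5% of ESC and 39.9% of NPC loops, flag gaps of 50.01 and 0.732 points, 356 higher and 147 lower promoter bins, a median count ratio of 0.30 and 51.9% of partners kept. An FDR under 0.0001 gave a ratio of 1.73, shares of 53.3% and 30.7%, and 349 higher and 186 lower bins. Lists of equal length gave 41.7% for both shares. A tolerance of 1 bin gave shares of 74.3% and 60.2% and gaps of 15.0 and 3.08 points. It gave 86.0% of partners kept, by a measure unlike the exact share. Limiting the flags to bins of the FitHiChIP lists gave 95.2% equal flags, an ESC gap of 14.0 and a reversed NPC gap of -0.307. Without chromosome 3, the one with the most extreme ratio, the loop ratio was 1.45 and the NPC share 34.8%. Without centring, 1274 bins were higher and 155 lower. A minimum of 5 loops gave 1253 and 863, and of 20 loops 246 and 82. Counting the neighbouring bins gave 901 lower bins. The split by distance was chosen after seeing the data: loops under 200 kb gave 90 higher and 51 lower bins, and loops of 200 kb and more 425 and 231. The count ratio was 0.053 scaled by total contacts and 0.11 as observed to expected. Partners kept were 39.2% with at least 5 and 50.9% with at least 20 loops in each list.

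Of 66 named genes past the fold, 63 kept their direction with FitHiChIP and 55 stayed past it, 65 and 57 with the strict FDR, and 64 and 58 with neighbouring bins. All 66 kept direction with lists of equal length. They also did so without centring and with a pseudocount of 0.5, but neither setting could turn a gene past the fold. The 63 with FitHiChIP include the highest and lowest bins with the same flag. Those bins were chosen for the same sign in FitHiChIP, so they could not turn there. Foxd3 (-0.0083), Sox7 (-0.42) and Hsp90ab1 (-0.91) turned with FitHiChIP, Hsp90ab1 (-0.13) and Ttc30a2 (-0.081) with neighbouring bins, Slit1 with the strict FDR (0.53) and under 200 kb (0.051), and under 200 kb Mapt (0.73) and Efnb2 (-0.27). Apart from the alternatives' own construction, the cause was not tested. Loop numbers rest on 1 list per group, so the spread between cultures is unknown.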
